A study of Mus musculus with 8 samples.

Results

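The levels of 9 marker genes were followed across 8 sequencing libraries of sorted mouse gut cells. They comprise 7 markers of visceral smooth muscle (Acta2, Tagln, Myh11, Actg2, Cnn1, Des and Myocd) and 2 markers of the interstitial cells of Cajal (Kit and Ano1). The rows were taken by gene symbol, and all 9 were found among the 18561 genes of the deposited table. All 9 passed the filter on low counts. The cells were enteric neural crest cells from gastrointestinal tracts at embryonic day 14.5, sorted with antibodies to CD271 and CD57, about 200 to a tube. Of the libraries, 5 carried the genotype label Emb knockdown and 3 the label WT. The labels did not give how Emb was knocked down, whether tubes came from separate embryos, or any litter, sex or sorting date. The p-values therefore rest on library-to-library spread, part or all of which may be technical.

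Visceral smooth muscle forms the contractile layers of the gut wall, and enteric neural crest cells migrate through the mesenchyme in which that muscle differentiates. Its cells contract when myosin slides along smooth muscle actin filaments, and the genes of that machinery are switched on by serum response factor together with myocardin. Interstitial cells of Cajal arise from the same gut mesenchyme, depend on signalling through the receptor Kit, and pace the muscle through the chloride channel Ano1. Neither cell type descends from the neural crest. Kit is also a marker of mast cells, melanoblasts and blood progenitors.

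Library totals ran from 20116607 to 26959265 counts, so that the detection floor, set at 3 counts, lay between 0.0966 and 0.155 CPM, where CPM is the count in 1000000 after TMM scaling of the library total. Emb itself was at 353 and 349 CPM in knockdown-labelled libraries 1 and 2, at 21.4 to 37.2 CPM in numbers 3 to 5 of that label, and at 15.9 to 17.7 CPM in WT, with a log2 fold change over the last 6 libraries of 0.67 ± 0.26 (SE, adjusted p = 0.0972 by edgeR). Since no knockdown-labelled library held less of the targeted gene than WT, each direction below is a difference between labelled groups. Knockdown-labelled libraries 1 and 2 stood apart from the rest. Sox10, a defining transcription factor of enteric neural crest cells, was at 5.51 and 0 CPM there (0 counts allow up to 0.141 CPM), at 68.0 to 77.6 CPM in numbers 3 to 5 and at 244 to 281 CPM in WT. The summed level of 10 enteric neural crest genes was 211 and 168 CPM there, 979 to 1072 CPM in knockdown-labelled libraries 3 to 5 and 2973 to 3048 CPM in WT. The summed level of 12 leukocyte genes was 21841 and 16913 CPM there, 1321 to 2204 CPM in knockdown-labelled libraries 3 to 5 and 297 to 432 CPM in WT. Results are given with all 8 libraries and again without those 2 libraries. With bulk RNA, fewer cells of a type and less RNA in each such cell cannot be told apart.

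All 9 are protein-coding genes. In GRCm38.p6 the actin genes lie apart, Acta2 at chr19:34240336-34255585 and Actg2 at chr6:83512909-83536251, while Tagln at chr9:45929628-45936058 and Cnn1 at chr9:22099221-22109221 share a chromosome. The remaining positions are Myh11 at chr16:14194527-14292188, Des at chr1:75360292-75368579, Myocd at chr11:65173608-65269989, Kit at chr5:75574987-75656722 and Ano1 at chr7:144588549-144752026.

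Promoter sequence from RefSeq (GRCm38.p6) was at hand for 5 of the 9 markers, namely Acta2, Cnn1, Des, Kit and Ano1. The 250 bases before the annotated start are shown for Acta2, the marker with the highest level, and for Kit, the marker with the smallest p. The Acta2 window lies on the minus strand at chr19:34255374-34255623 and the Kit window on the plus strand at chr5:75574737-75574986. The starts used for Acta2, Cnn1 and Ano1 lie inside the gene spans given above and are not the outer ends of those spans. The Acta2 window therefore lies partly, and the Ano1 window (chr7:144738574-144738823) wholly, within the span of its gene. Capitals mark CArG boxes, the element bound by serum response factor, with at most 1 G or C in the core of 6 bases.
Acta2: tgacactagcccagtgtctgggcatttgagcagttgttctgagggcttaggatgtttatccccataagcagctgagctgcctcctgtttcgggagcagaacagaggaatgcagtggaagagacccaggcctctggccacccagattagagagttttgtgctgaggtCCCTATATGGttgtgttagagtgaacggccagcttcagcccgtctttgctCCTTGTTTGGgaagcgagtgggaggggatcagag
Kit: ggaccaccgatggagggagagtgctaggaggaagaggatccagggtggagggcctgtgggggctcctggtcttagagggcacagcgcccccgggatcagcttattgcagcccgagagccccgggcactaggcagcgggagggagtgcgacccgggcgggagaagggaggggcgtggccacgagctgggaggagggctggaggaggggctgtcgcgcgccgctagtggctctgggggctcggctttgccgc
The Acta2 window held 2 such elements, whose first bases lie 84 and 34 bases before the start. The windows of the other 4 markers held none, and none of the 5 held a box with A or T throughout the core. Over 32817 promoter windows of the same length, 8.6% held at least 1 element of the relaxed form, 0.67% held 2 or more and 1.47% held the strict form. Both strands were covered, because the motif reads the same on either. A match describes these letters only.

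The contractile genes stood above the Cajal cell markers and Myocd in WT. Compared per gene length in WT, Acta2, the smooth muscle actin, was highest at 597 ± 142 FPKM (SD, n = 3). Actg2, the enteric actin of visceral muscle, followed at 340 ± 116 FPKM (SD, n = 3). Tagln, which encodes the actin-binding protein transgelin, was at 208 ± 57.3 FPKM (SD, n = 3). Cnn1, the gene of calponin 1, which restrains actomyosin, was at 129 ± 60.9 FPKM (SD, n = 3). In that order Acta2 did not overlap with Actg2 across WT libraries, while Actg2 overlapped with Tagln and Tagln with Cnn1. Myh11, the smooth muscle myosin heavy chain, was at 28.6 ± 6.91 FPKM (SD, n = 3) and Des, the intermediate filament desmin, at 15.6 ± 0.415 FPKM (SD, n = 3), each separate from its neighbours in the order. Ano1, Kit and Myocd, which encodes the coactivator myocardin, came last at 9.67 ± 3.29, 7.93 ± 2.00 and 6.96 ± 2.32 FPKM (SD, n = 3), and their libraries overlapped.

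In knockdown-labelled libraries 3 to 5 the order of the means was the same from Acta2 to Des and differed below. Acta2 was at 636 ± 285, Actg2 at 340 ± 191 and Tagln at 278 ± 101 FPKM (SD, n = 3). Cnn1 was at 89.8 ± 22.0, Myh11 at 43.0 ± 10.02 and Des at 18.7 ± 3.23 FPKM (SD, n = 3). Here Acta2 (401 to 953 FPKM) overlapped with Actg2 (170 to 546 FPKM) across libraries, unlike in WT, and Tagln exceeded Actg2 in library 4, at 313 against 304 FPKM. The overlap of the 2 actins held in FPKM only. In CPM, Acta2 (883 to 1600) did not overlap with Actg2 (176 to 555) in these libraries. The Acta2 length implied by counts and FPKM was 2.36 and 2.37 kb in knockdown-labelled libraries 4 and 5, against 1.67 to 1.68 kb in WT. Within each library Acta2 still exceeded Actg2. The FPKM ratio of Actg2 to Acta2 was 0.423 to 0.573 here and 0.481 to 0.618 in WT. Kit stood at 18.3 ± 3.41 FPKM, level with Des, above Myocd at 11.3 ± 1.47 FPKM and Ano1 at 7.76 ± 0.338 FPKM (SD, n = 3). These last 3 did not overlap with each other, so Kit, which lay among the lowest markers in WT, exceeded both in each of these libraries.

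**Figure D1:**
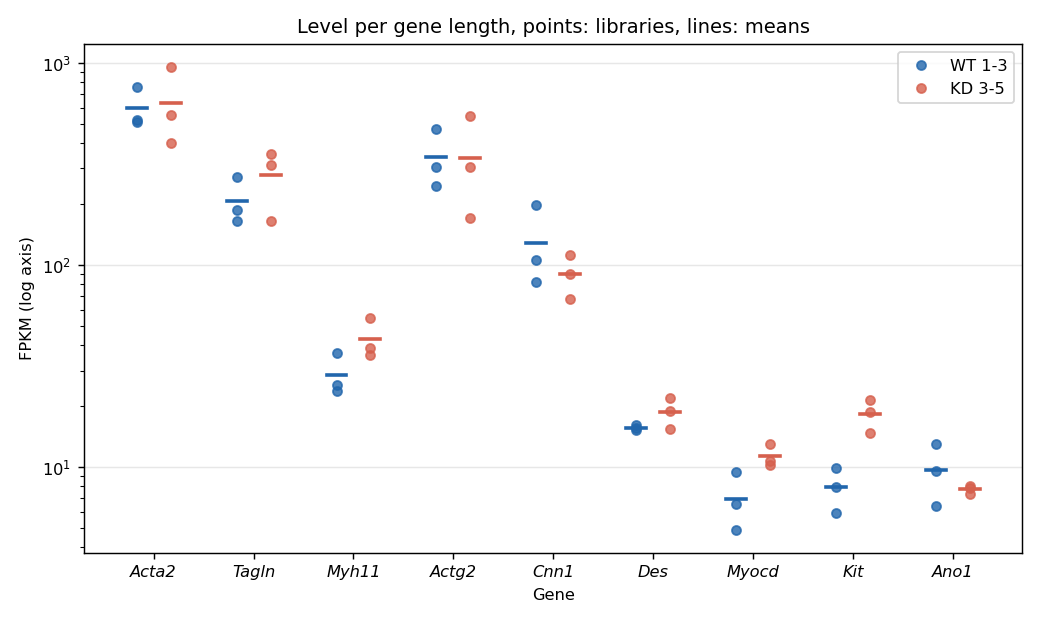
FPKM (log axis) of the 9 markers in the 3 WT libraries (blue) and knockdown-labelled libraries 3 to 5 (red); points are libraries and lines are means. Kit lies among the lowest markers in WT and beside Des in the other libraries, with means of 7.93 and 18.3 FPKM.

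Knockdown-labelled libraries 1 and 2 held the lowest levels of all 7 smooth muscle markers. Acta2 was at 42.8 and 238 CPM in these 2, at 1600, 1273 and 883 CPM in knockdown-labelled libraries 3, 4 and 5, and at 799, 1104 and 765 CPM in WT 1, 2 and 3. Tagln was at 8.35 and 92.6 CPM, then at 452, 419 and 211 CPM, against 237, 320 and 198 CPM in WT. Actg2 was at 15.7 and 139.8 CPM, then at 555, 326 and 176 CPM, against 310.2, 441 and 238 CPM in WT. For each of these genes knockdown-labelled libraries 3 to 5 overlapped with WT, and knockdown-labelled library 3 was highest of all 8.

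Myh11 was at 6.65 and 48.6 CPM in knockdown-labelled libraries 1 and 2, at 190, 238 and 161 CPM in those labelled 3, 4 and 5, and at 151, 204 and 136 CPM in WT. Des was at 2.06 and 15.1 CPM, then at 57.9, 52.5 and 40.9 CPM, against 42.3, 37.5 and 39.4 CPM in WT. Cnn1 was at 4.07 and 57.8 CPM, then at 125, 105 and 77.0 CPM, against 91.7, 206 and 114 CPM in WT. Outside knockdown-labelled libraries 1 and 2 the groups overlapped for all 3 genes. Together the 7 genes took 0.00623% and 0.0474% of counts in knockdown-labelled libraries 1 and 2, 0.175% to 0.327% in those labelled 3 to 5 and 0.172% to 0.273% in WT.

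These 2 libraries also differed from each other. Smooth muscle markers were higher in knockdown-labelled library 2 than in that labelled 1 by 5.56 times for Acta2, 7.31 times for Myh11, 11.1 times for Tagln and 14.2 times for Cnn1. Myocd differed by 2.08 times. Set against the WT mean, knockdown-labelled library 1 held 2.96% (Cnn1) to 6.00% (Myocd) of each smooth muscle marker, and that labelled 2 held 12.5% (Myocd) to 42.4% (Actg2). These ratios compare single libraries and carry no test.

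**Figure D2:**
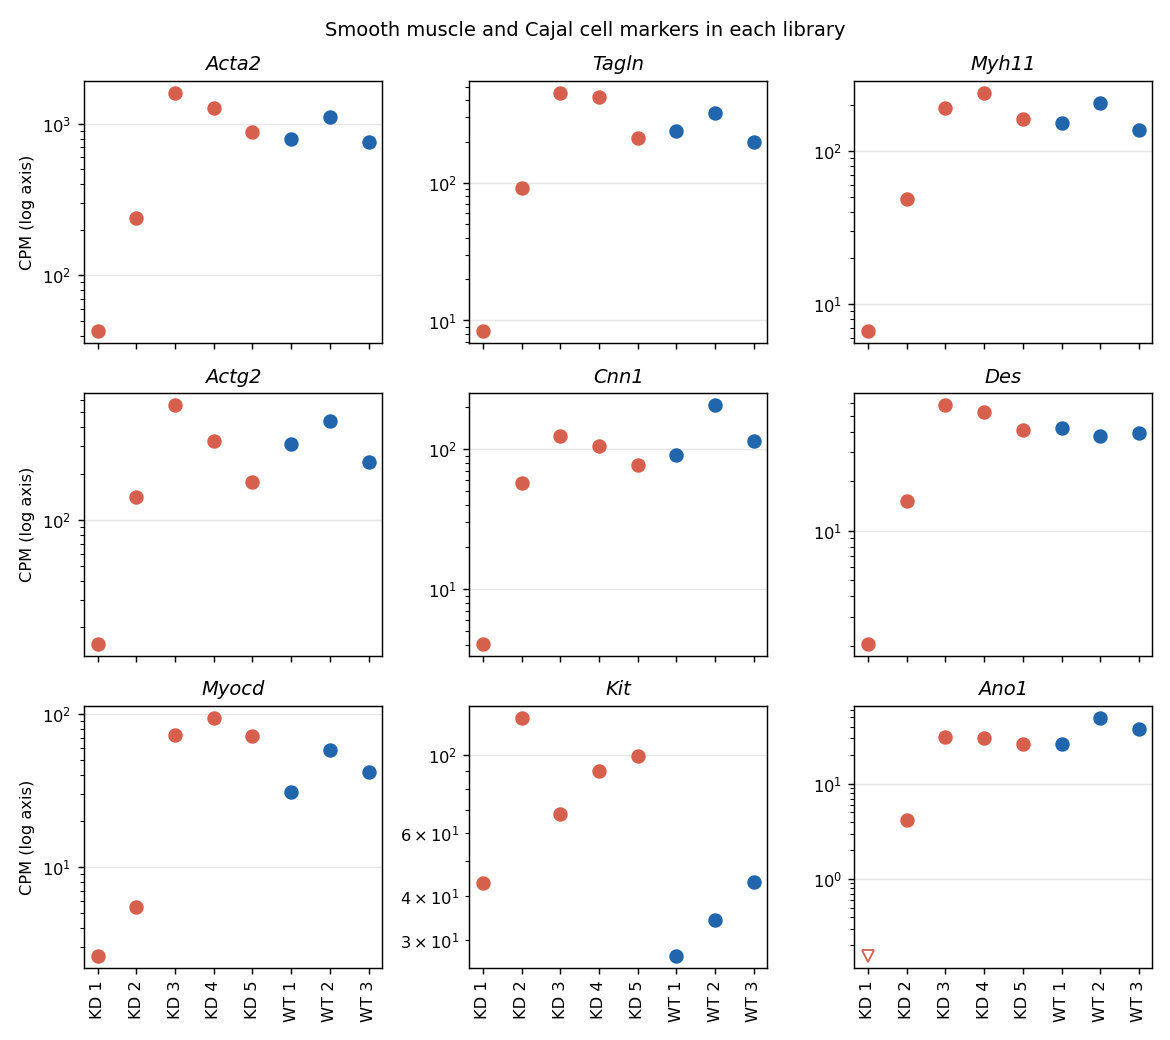
CPM (log axis) of each marker in each library, knockdown (KD, red) and WT (blue); the open triangle for Ano1 marks a count of 0, drawn at the level of 3 counts. Knockdown-labelled libraries 1 and 2 lie lowest in every panel except Kit, where the lowest is WT 1 at 27.1 CPM.

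Kit had the largest fold change of the 9 markers in both comparisons. It was at 43.5 and 127 CPM in knockdown-labelled libraries 1 and 2, at 67.8, 89.7 and 99.0 CPM in those labelled 3, 4 and 5, and at 27.1, 34.2 and 43.7 CPM in WT 1, 2 and 3. Every library labelled knockdown except the first lay above every WT library, and the first lay just below WT 3. Kit averaged 85.4 ± 31.6 CPM (SD) over the 5 and 35.0 ± 8.32 CPM (SD) over the 3 libraries. Its difference of 1.29 ± 0.37 (SE, log2 scale) missed the threshold (adjusted p = 0.158, Benjamini-Hochberg, from the quasi-likelihood test of edgeR).

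Without knockdown-labelled libraries 1 and 2, Kit rose from 38.1 ± 9.05 CPM in WT (SD, n = 3) to 93.1 ± 17.4 CPM (SD, n = 3, CPM rescaled over these 6 libraries). The difference was 2.45-fold, a log2 fold change of 1.29 ± 0.23 (SE, adjusted p = 0.013 in edgeR's quasi-likelihood test), and Kit was higher in 3 of 3 libraries than in any WT library. Leaving out knockdown-labelled library 4 ended the call (adjusted p = 0.0674), as did leaving out WT 2 (0.0588), and the fold change stayed between 1.13 and 1.48 on the log2 scale whichever of the 6 libraries was left out.

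Ano1, the other marker of Cajal cells, was called in neither comparison. Ano1 was listed at 0 counts in knockdown-labelled library 1, where a count of 0 allows up to 0.155 CPM, and was at 4.19 CPM in that labelled 2. It was at 31.3, 30.2 and 26.0 CPM in knockdown-labelled libraries 3, 4 and 5 and at 26.1, 49.3 and 37.5 CPM in WT 1, 2 and 3. The groups overlapped, and over 6 libraries its difference was -0.37 ± 0.25 (SE) on the log2 scale (adjusted p = 0.311 in edgeR's test). With 8 libraries it was -1.04 ± 1.29 (SE, adjusted p = 0.725 in the same test). The ratio of Kit to Ano1, both in FPKM, was 0.615 to 1.03 in WT, 1.86 to 2.91 in knockdown-labelled libraries 3 to 5 and 27.1 in that labelled 2. From counts the ratio was 0.694 to 1.16 in WT and 2.17 to 3.81 in numbers 3 to 5. It was described and not tested.

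Mast cell genes varied between libraries beside Kit. The 14 mast cell genes in the table summed to 2812 and 6049 CPM in knockdown-labelled libraries 1 and 2, to 233 to 516 CPM in those labelled 3 to 5 and to 57.9 to 728 CPM in WT. Cpa3, the mast cell carboxypeptidase, was at 397 and 1792 CPM in the first 2, at 146, 2.06 and 43.2 CPM in libraries 3, 4 and 5 of that label, and at 6.00, 10.1 and 121 CPM in WT 1, 2 and 3. Knockdown-labelled library 2 was thus highest in both Kit and Cpa3. In knockdown-labelled library 4, Kit was at 89.7 CPM while Cpa3 was at 2.06 CPM and Cma1, a mast cell chymase picked after its values were seen, had 0 counts, which allows up to 0.14 CPM. Tpsb2, Ms4a2, Mcpt1, Mcpt2 and Mcpt4 also had 0 counts there. Other genes of the list were present in that library, with Srgn at 150, Hdc at 30.1, Gata2 at 25.0 and Hpgds at 21.9 CPM. These genes too were picked after their values were seen. In WT 3, Cpa3 was at 121 CPM and Cma1 at 219 CPM while Kit was at 43.7 CPM.

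Of the 10 mast cell genes tested in 6 libraries, 3 rose, none fell and 7 missed the threshold, where 11.1% of all 15115 genes were called higher. Their median was 0.13 on the log2 scale, against 0.02 over all genes. The 3 were Srgn (1.94 ± 0.30), Hpgds (1.13 ± 0.26) and Il1rl1 (2.31 ± 0.56), and other leukocytes also express Srgn and Hpgds. Between 0 and 3 rose when 1 library was left out, the lowest number coming without knockdown-labelled library 4. Without WT 1, 1 rose and 1, the histidine decarboxylase gene Hdc, fell (adjusted p = 0.0331 by edgeR), and Hdc was picked after its values were seen. Over those 6 repeats Srgn was called in 5, Hpgds in 2 and Il1rl1 in 1. Of 8 melanocyte genes, 6 were in the table and 3 were tested, of which Tyr, the gene of tyrosinase, rose (2.30 ± 0.49). Mitf (-0.24 ± 0.31) and Pmel (-0.53 ± 0.95) did not pass (adjusted p = 0.605 and 0.716 by edgeR), and the median of the 3 was -0.24. Dct, Slc45a2 and Oca2 were at most at 0.514 CPM in all 8 libraries. Tyr was not called when knockdown-labelled library 4 was left out (adjusted p = 0.0794), WT 2 (0.0746) or WT 3 (0.0728). The part of mast cells or melanoblasts in the level of Kit was not tested beyond these values.

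**Figure D3:**
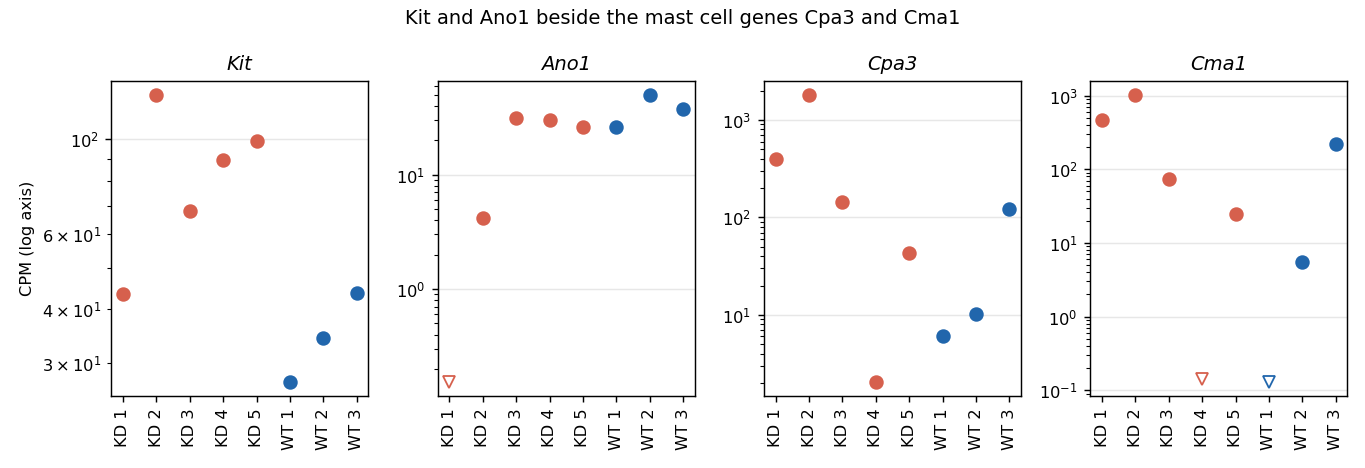
CPM (log axis) of Kit, Ano1 and the mast cell genes Cpa3 and Cma1 in each library, knockdown (KD, red) and WT (blue); open triangles mark fewer than 3 counts and are drawn at the level of 3 counts. In knockdown-labelled library 4 Kit stands at 89.7 CPM with Cpa3 at 2.06 CPM. Hdc, another mast cell gene, was at 30.1 CPM in that library and is not drawn.

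Myocd was the other marker that rose once knockdown-labelled libraries 1 and 2 were left out. It was at 2.63 and 5.46 CPM in those 2, at 73.1, 94.5 and 71.7 CPM in knockdown-labelled libraries 3, 4 and 5, and at 31.2, 58.4 and 41.8 CPM in WT 1, 2 and 3. The lowest of these 3 knockdown-labelled libraries thus lay above the highest WT library. Over 6 libraries Myocd went from 47.6 ± 14.9 CPM in WT to 86.9 ± 13.9 CPM (SD, n = 3 each), 1.82-fold, with a log2 fold change of 0.87 ± 0.25 (SE, adjusted p = 0.0414 in edgeR's quasi-likelihood test). With 8 libraries the log2 fold change was 0.18 ± 1.04 (SE, adjusted p = 0.948). The call over 6 libraries ended without any one library except that labelled knockdown 3, the adjusted p reaching 0.163 without knockdown-labelled library 4, 0.144 without WT 3, 0.116 without WT 1, 0.0681 without knockdown-labelled library 5 and 0.0571 without WT 2. It also ended with plain library totals in place of TMM (0.0607) and on log2(FPKM + 1) (0.0833).

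The contractile markers themselves did not pass in either comparison. Of the 9 markers 0 were called with 8 libraries, where edgeR's quasi-likelihood test called 0% of 15411 genes. At an unadjusted p under 0.05 stood 1 of the markers, Kit, and 2865 genes. The groups were separate for 0 of 9 markers, against 22.7% of genes. DESeq2 called 2192 genes and limma voom 3692, and each called Kit alone among the markers (adjusted p = 0.0146 and 0.00973). With 6 libraries edgeR called 2 of 9 markers, Kit and Myocd, against 20.4% of 15115 genes in either direction. Both were called higher, against 11.1% of genes, and 0 of 9 were called lower, against 9.37%. The groups did not overlap for the same 2 markers, against 43.4% of genes in either direction and 20.5% with the knockdown label higher. With 9 markers, each one is a large step in such a share.

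In edgeR's test with 6 libraries Acta2 had a log2 fold change of 0.50 ± 0.26 (SE, adjusted p = 0.2) and Tagln one of 0.52 ± 0.30 (adjusted p = 0.242). The values were 0.35 ± 0.19 for Des (adjusted p = 0.212), 0.26 ± 0.22 for Myh11 (0.405), 0.10 ± 0.39 for Actg2 (0.876) and -0.42 ± 0.31 for Cnn1 (0.358). The median over the 9 markers was 0.35, against 0.02 over all genes tested. Limma voom with quality weights also called Acta2 (0.52, adjusted p = 0.0496) and Tagln (0.68, adjusted p = 0.0436), and edgeR did not. With 8 libraries the fold changes of the 6 contractile and filament genes lay between -0.89 (Cnn1) and -0.09 (Tagln), with standard errors of 0.81 to 0.95.

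**Figure D4:**
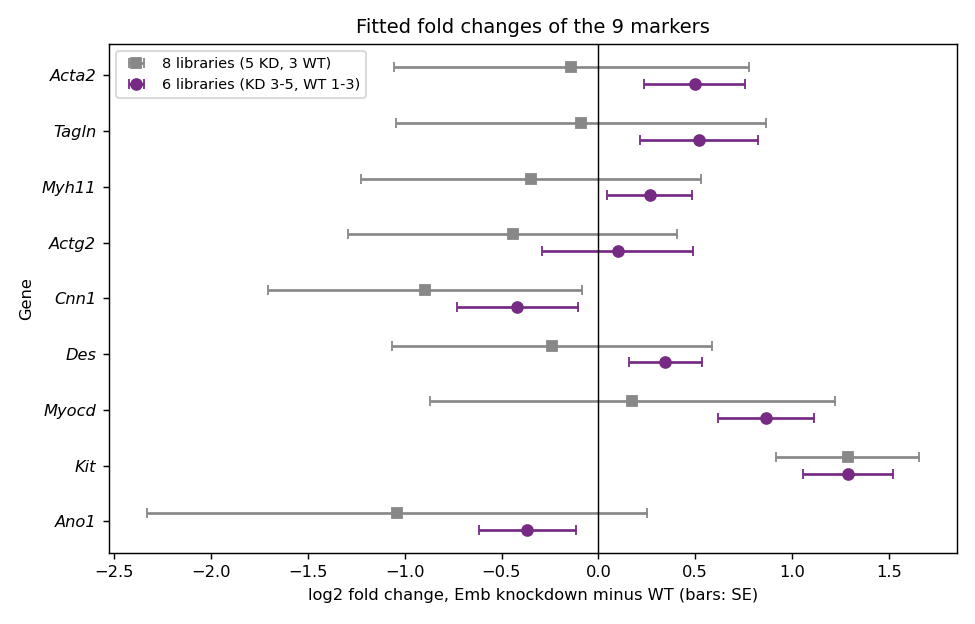
Fitted log2 fold change, Emb knockdown minus WT, of the 9 markers with 8 libraries (grey squares) and without knockdown-labelled libraries 1 and 2 (purple circles); bars are standard errors. Kit lies at 1.29 in both fits, and the error bars of all 9 markers are wider with 8 libraries.

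Ratios between markers within a library were taken from counts, since the gene length implied by the FPKM values varied between libraries for Acta2 (1.67 to 2.37 kb) and Myh11 (4.46 to 6.48 kb). The count ratio of Actg2 to Acta2 was 0.311 to 0.399 in WT and 0.199 to 0.347 in knockdown-labelled libraries 3 to 5, so the groups overlapped. That of Tagln to Acta2 was 0.259 to 0.297 in WT and 0.239 to 0.329 in numbers 3 to 5, also with overlap. In FPKM the same ratio was 0.321 to 0.362 and 0.373 to 0.565, without overlap. The count ratio of Cnn1 to Acta2 was 0.115 to 0.187 in WT and 0.0784 to 0.0871 in numbers 3 to 5, without overlap, while in FPKM it was 0.159 to 0.260 and 0.117 to 0.168, with overlap. The count ratio of Myocd to Myh11 was 0.206 to 0.306 in WT and 0.385 to 0.446 in numbers 3 to 5, without overlap, while in FPKM it was 0.192 to 0.273 and 0.238 to 0.296, with overlap. None of these ratios was tested, and for 3 of the 4 the overlap of the groups depended on the scale.

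Leaving out 1 of the 6 libraries changed the number of calls over the whole table. Of all genes 3090 were called with 6 libraries, 180 without knockdown-labelled library 4, 294 without WT 3, 417 without WT 2, 1388 without WT 1, 1663 without knockdown-labelled library 5 and 5982 without number 3. Counts of lost calls in the lists that follow stand beside these numbers, with the median fold change of each list.

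Other genes of the contractile apparatus, a list of 24 that shares no gene with the 9 markers, were higher in part. With 6 libraries 11 of the 24 rose, none fell and 13 missed the threshold. Of all 15115 genes 11.1% were called higher and 9.37% lower. The median of the list was 0.52 on the log2 scale, against 0.02 over all genes. Tpm2, the gene of a tropomyosin that lies along the actin filament, rose from 148 ± 23.0 CPM in WT to 361 ± 48.1 CPM (SD, n = 3 each; 1.28 ± 0.19). Cacna1c, which encodes the pore of the calcium channel that triggers contraction, rose by 1.65 ± 0.26 on the log2 scale, and Ppp1r12b, a subunit of myosin phosphatase, by 1.67 ± 0.29. The count depended on the libraries, with 0 rising without knockdown-labelled library 4 or WT 3, 4 without WT 2 and 10 or 11 without any of the rest, while 2 fell without knockdown-labelled library 3. In that last repeat 3020 of 15394 genes were called lower over the whole table. The median stayed between 0.46 and 0.62 over these 6 repeats. All 3 genes missed the threshold when knockdown-labelled library 4 was left out (adjusted p = 0.0538, 0.0564 and 0.0654) or WT 3 was (0.0509, 0.0539 and 0.056), and Ppp1r12b also without WT 2 (0.0545). With 8 libraries 0 of the 24 passed, where 0% of all 15411 genes were called.

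Of 15 transcriptional regulators of gut smooth muscle and its mesenchyme, 5 rose with 6 libraries, none fell and 10 did not pass (median 0.65). Among all 15115 genes 11.1% were called higher and 9.37% lower. Foxf2, a forkhead factor of gut mesenchyme, rose from 24.7 ± 2.54 to 61.9 ± 16.6 CPM (SD, n = 3 each; 1.33 ± 0.24). Klf4 rose by 1.06 ± 0.20 and Tead1, a factor of the Hippo pathway, by 1.89 ± 0.37. Klf4 is known as a repressor of smooth muscle differentiation. The fold change was above 0 for 11 of the 15. Mef2c (-0.46 ± 0.15), Nkx3-2 (-0.94 ± 0.69), Mrtfa (-0.28 ± 0.20) and Foxf1 (-0.05 ± 0.25) lay below 0 and did not pass. These 4 were named after their values were seen. The number that rose was 0 without knockdown-labelled library 4, WT 2 or WT 3, 3 without that labelled knockdown 5 or WT 1 and 6 without that labelled knockdown 3, where 3 fell. Those that fell were Klf5, Mef2c and Nkx3-2 (adjusted p = 0.00636, 0.0281 and 0.0413 by edgeR). The median was 0.44 to 0.73 over the repeats, and 0.73, 0.72 and 0.53 in the 3 without a call. The calls of Foxf2, Klf4 and Tead1 were among those lost without knockdown-labelled library 4 (adjusted p = 0.0658, 0.0658 and 0.0692), WT 2 (0.0528, 0.0704 and 0.0628) or WT 3 (0.0672, 0.056 and 0.0684).

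Of 14 other genes linked to Cajal cells and their signalling, 8 rose with 6 libraries, 1 fell and 5 did not pass (median 0.91). The shares over all 15115 genes were 11.1% higher and 9.37% lower. Cacna1g, the gene of a T-type calcium channel, rose from 9.59 ± 1.71 to 46.4 ± 19.8 CPM (SD, n = 3 each; 2.28 ± 0.34). Pde3a, a phosphodiesterase gene, rose by 1.93 ± 0.30 and Gucy1a1, a subunit of the nitric oxide receptor also found in muscle and pericytes, by 1.08 ± 0.18. The gene that fell was Gja1, which encodes the gap junction protein connexin 43 (-1.43 ± 0.26), named after its values were seen. Etv1, a transcription factor of Cajal cells, and Kitl, the ligand of Kit, were likewise picked out afterwards. Their log2 fold changes were 0.02 ± 0.26 and 0.14 ± 0.20 (adjusted p = 0.972 and 0.637 in edgeR's test). The number that rose was 0 without knockdown-labelled library 4, 2 to 4 without that labelled 5 or any 1 WT library and 8 without that labelled 3, while the median lay between 0.81 and 1.07. Without knockdown-labelled library 4 the adjusted p was 0.0503 for Cacna1g, 0.0564 for Pde3a and 0.0599 for Gucy1a1, and without WT 2 it was 0.0563 for Gucy1a1. Gja1 was not called without knockdown-labelled library 4 (0.0658), WT 2 (0.0531) or WT 3 (0.0644).

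Markers of mesenchyme and pericytes differed between the same libraries. The counts below stand beside 11.1% of all 15115 genes called higher with 6 libraries and 9.37% called lower. Of 14 mesenchyme genes 9 rose with 6 libraries and none fell (median 1.41), those with the smallest p being Col6a3 (2.46 ± 0.29), Col1a2 (1.54 ± 0.21) and Twist1 (1.89 ± 0.35). Their sum was 69.96 and 495 CPM in knockdown-labelled libraries 1 and 2, 5570 to 6059 CPM in those labelled 3 to 5 and 2969 to 4175 CPM in WT. Of 11 pericyte genes tested 5 rose and none fell (median 0.77), among them Abcc9 (2.11 ± 0.34), Cspg4 (1.61 ± 0.35) and Pdgfrb (0.98 ± 0.27). The fold change was above 0 for 8 of the 11. Vtn (-1.60 ± 1.08), Ndufa4l2 (-1.36 ± 0.60) and Anpep (-0.56 ± 0.59), named after their values were seen, lay below 0 and were not called. Pericytes also express Acta2 and Des. The 12 pericyte genes summed to 40.8 and 41.0 CPM in knockdown-labelled libraries 1 and 2, to 341 to 514 CPM in those labelled 3 to 5 and to 217 to 288 CPM in WT. Pdgfra, which marks mesenchyme and the interstitial cells that partner Cajal cells, rose by 1.49 ± 0.26, while Kcnn3 and P2ry1 did not pass (adjusted p = 0.29 and 0.372). Without knockdown-labelled library 4 the number that rose was 2 of the mesenchyme genes, 0 of the pericyte genes and 0 of these 3, with medians of 1.42 for mesenchyme and 0.75 for pericyte genes. It was 2 and 1 of the mesenchyme and pericyte genes without WT 2, 4 and 1 without WT 3, 5 and 2 without WT 1, 9 and 2 without knockdown-labelled library 5 and 8 and 6 without number 3. Pdgfra was not called without WT 2 either (adjusted p = 0.0528). Over the 6 repeats Col6a3 and Col1a2 were called in 6, Abcc9 in 5, Twist1 and Cspg4 in 3 and Pdgfrb in 1. Endothelial genes went the other way in the same libraries. Of 10, 9 fell, against 9.37% of all genes, and none rose (median -1.97), among them Cdh5 (-2.71 ± 0.33). Their sum was 82.4 and 74.1 CPM in knockdown-labelled libraries 1 and 2, 109 to 208 CPM in those labelled 3 to 5 and 504 to 705 CPM in WT. The number that fell was 4 without knockdown-labelled library 4 or WT 3, 6 without WT 2 and 7 to 10 without any of the rest. The part of these cells in the levels of the 9 markers was not tested.

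Genes of striated muscle, which can also express Des, summed to less than the 9 markers in every library. Not all were low, since Chrna1 was at 42.8 and 52.9 CPM in knockdown-labelled libraries 4 and 5. Des was at 52.5 and 40.9 CPM there. The 15 genes summed to 31.0 and 35.4 CPM in knockdown-labelled libraries 1 and 2, to 86.0 to 94.2 CPM in those labelled 3 to 5 and to 49.2 to 68.5 CPM in WT. Myod1, the master regulator of skeletal muscle, did not exceed 0.374 CPM in any library, and 5 libraries were at 0. Of 9 genes tested with 6 libraries 2 rose, Tnnt1 (2.00 ± 0.34) and Chrna1 (1.84 ± 0.33), and 1 fell, Myh3 (-2.04 ± 0.62). The median of the 9 was -0.60. Over all 15115 genes 11.1% were called higher and 9.37% lower, and each of 9 genes is a large step in such a share. With each of the 6 libraries left out in turn Tnnt1 was called in 4 repeats, Chrna1 in 3 and Myh3 in 0.

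**Figure D5:**
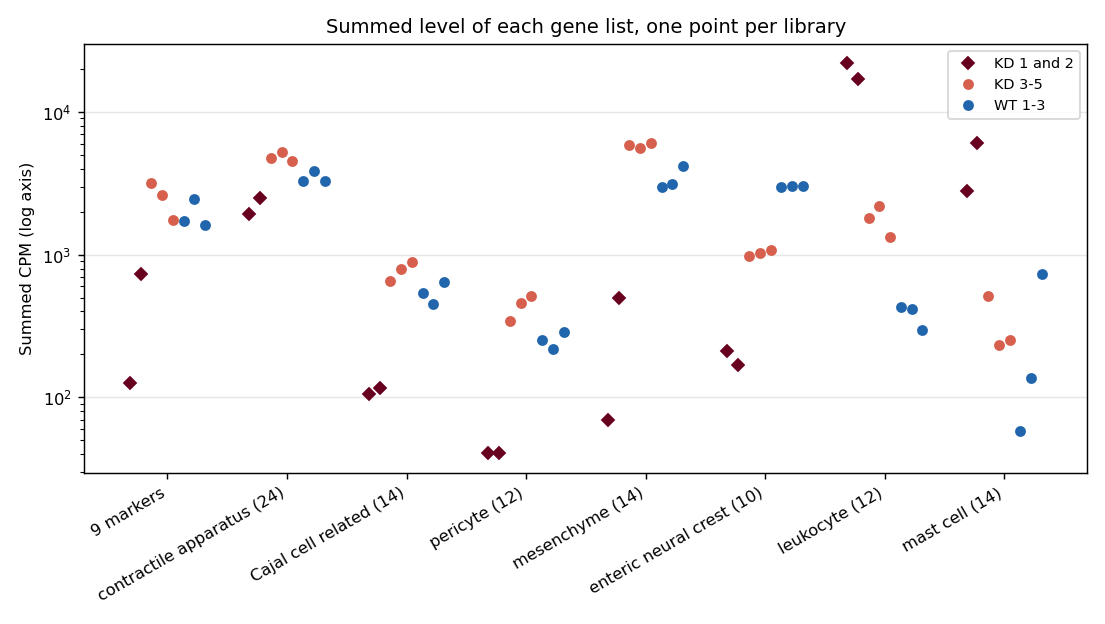
Summed CPM (log axis) of the 9 markers and of 7 other gene lists in each library; the number of genes in each list is in brackets, diamonds are knockdown-labelled libraries 1 and 2, and circles the others. The 9 markers, mesenchyme and pericyte genes are lowest in knockdown-labelled libraries 1 and 2, where leukocyte and mast cell genes are highest.

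The genes whose pattern was most like each marker were found by Pearson's r of log2 CPM over the 8 libraries among 12023 genes. This is a description, since all genes share the same libraries, and r over the 6 libraries left without knockdown 1 and 2 is given after it. For Acta2 the nearest gene was Dsg2 (0.993 and 0.867), followed by Popdc2 and Pth1r, and for Myh11 it was Pth1r (0.998 and 0.954), followed by Popdc2 and Rab15. The nearest to Tagln was Lmod1, the gene of the actin nucleator leiomodin 1 (0.990 and 0.813), followed by Acta2 and Myh11. Actg2 lay nearest to Tmem254c (0.994 and 0.950), then Myl9 and Egln3, and Cnn1 to Pdlim3 (0.997 and 0.975), then P4ha3 and Gnai1. Des lay nearest to Procr (0.995 and 0.714), then Bgn and Pde1a, and Myocd to Col23a1 (0.995 and 0.961), then Fhl2 and Bdnf. Ano1 lay nearest to Smoc1 (0.999 and 0.876), then Pawr and Eva1a. For each of these markers the r of the nearest gene was lower over 6 libraries than over 8. Actg2 with Egln3 went the other way, at 0.982 over 8 and 0.986 over 6. So did the 3 genes nearest to Kit, given below.

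The r of Kit with each of the other 8 markers over 8 libraries lay between -0.0099 (Actg2) and 0.0846 (Tagln), while the 7 smooth muscle markers correlated with each other at 0.826 (Cnn1 with Myocd) to 0.990. The genes nearest to Kit were Rsc1a1 (0.964 over 8 libraries and 0.984 over 6), Mtfr2 (0.962 and 0.976) and Mki67 (0.959 and 0.962). Mki67 is widely used as a marker of proliferating cells. Over 6 libraries the 7 smooth muscle markers correlated with each other at -0.153 (Cnn1 with Des) to 0.960 (Acta2 with Tagln). The r of Kit with the other 8 then lay between -0.421 (Cnn1) and 0.855 (Myocd), and that of Cnn1 with Ano1 was 0.934.

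Read assignment differed between the markers. In the GENCODE M21 annotation of GRCm38, Kit, Actg2, Cnn1 and Ano1 shared 0% of the 50-base words of their coding transcripts with transcripts of any other gene. Acta2 shared 0.326% with Actg1 and actin pseudogenes, and Myh11 shared 0.391% with Myh9 and Myh10. Tagln shared 47.6% of its words with other transcripts, of which most (43.8%) were those of the antisense gene Gm48529 and 3.75% those of Pcsk7, a gene on the opposite strand whose exons overlap it. Des shared 5.81% with the antisense gene Gm15179. The method does not mark strand, so reads of such partners cannot be told apart, and the values of Tagln and Des are uncertain to that extent.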

How the data were processed

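RNA of about 200 sorted cells per tube was amplified with Smart-seq2 and sequenced as DNA nanoballs, per the labels' protocols. HISAT, Bowtie2 and GRCm38.p6 were used, per the submitters' processing notes; which tool counted reads, and on which annotation, is not given in the sources used here. The authors deposited expected counts without normalisation, between 17.6% and 19.8% of them not whole in a library. The FPKM and TPM values and the normalised counts, a signal scaled with 1 factor per library, were also deposited by the authors, per the file headers. TPM, the normalised counts and 8 columns of group means were not used.

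Expected counts were rounded, filtered with filterByExpr, scaled with TMM factors and tested over the whole table in edgeR 4.0.16 (R 4.3.3) by its robust quasi-likelihood method, two-sided, at a Benjamini-Hochberg adjusted p under 0.05. Alternatives used DESeq2 1.42.0 and limma 3.58.1. Log2 CPM had a prior count of 2. The markers, lists and tests were chosen with earlier results of these data known. The text names Emb, the 9 markers, up to 3 genes per list with the smallest p in 6 libraries, defining markers of other cells, and the 3 genes most like each marker (mean of at least 5 CPM), except where stated. On simulated counts of 6 libraries (14916 genes tested) edgeR found 59 of 60 genes set to a 32-fold change, 54 of 70 set to 4-fold and 21 of 70 set to 2-fold, beside 9 false calls. For 8 libraries (15004 genes) it found 46, 11 and 1, beside 2 false calls. In the simulation each gene was drawn independently, and only the genes set to change differed between groups. In the real 6 libraries 20.4% of genes were called, so these numbers are not the error rates of the real data. All library pairs differed beyond counting noise (chi-square of at least 29.5 for each degree of freedom). Limits for counts of 0 cover counting error only.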

Additional observations from a re-analysis of the deposited data

How the results depend on the processing

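With 6 libraries, 110 of 126 values of single markers kept their direction and side of the threshold, and with 8 libraries 134 of 153. Among all genes, 0 were called with 8 libraries by edgeR, 2192 by DESeq2 and 3692 by voom, and these last 2 called 1 marker each. With 6 libraries 3090 genes and 2 markers were called, against 6900 genes and 4 markers with voom. Without a composition factor, on log2(FPKM + 1) and on log2(FPKM + 0.1) 1 marker was called each. Of the genes called with 6 libraries 54.1% were higher, against 45.4% with plain library totals and 38.4% on log2(FPKM + 1). The median log2 fold change of all genes with 8 libraries was 0.069 as fitted, -0.17 where no composition factor was used, and -0.21 and -0.35 on log2(FPKM + 1) and log2(FPKM + 0.1). Leaving out each library gave 0 to 2 genes and 0 markers with 8 libraries, and 180 to 5982 genes and 0 to 2 markers with 6. Directions reversed for markers that were not called. With 8 libraries these were, under voom, Acta2 (0.27), Tagln (0.37), Myh11 (0.15) and Des (0.16), and Myocd on log2(FPKM + 1) (-0.58) and log2(FPKM + 0.1) (-1.07). With 1 library left out Acta2 ranged from -0.54 to 0.17, Tagln from -0.46 to 0.22, Des from -0.52 to 0.067 and Myocd from -0.19 to 0.48. With 6 libraries Actg2 was at -0.11 on both FPKM scales and ranged from -0.41 to 0.42 with 1 library left out. The cause was not tested. The replicate block, which takes the shared numbers as a pairing, called 0 genes with 8 libraries and gave Myocd -2.26, Kit 1.06 and Ano1 -3.67. The deviations of same-numbered libraries from their group means had r of -0.03, 0.04 and -0.04 over genes. The knockdown-labelled mean included libraries 1 and 2, which stood apart, so these r cannot settle whether the numbers pair libraries. The number is not known to pair them. No paired analysis was possible with 6 libraries because the groups share 1 number. Depth limits Ano1 in knockdown-labelled library 1, where 0 counts allow up to 0.155 CPM.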

Other observations

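The deposited counts and FPKM values imply a gene length for each library, as counts per 1000000 divided by FPKM. For Kit this length was 4.93 to 4.97 kb over 8 libraries and for Des 2.83 to 2.87 kb. For Myh11 it was 6.40 to 6.44 kb in the 3 WT libraries and 6.48 kb in the library labelled knockdown 2, but 4.46, 4.50 and 4.49 kb in those labelled knockdown 1, 4 and 5 and 5.65 kb in that labelled 3. For Acta2 it was 1.67 to 1.68 kb in WT, 1.75 to 1.82 kb in the libraries labelled knockdown 1 to 3 and 2.36 and 2.37 kb in those labelled 4 and 5. Cnn1 had 1.51 kb in the library labelled knockdown 1 and 1.20 to 1.23 kb in the others. Among 6168 genes with at least 100 counts and 5 FPKM in every library, the highest implied length was under 1.1 times the lowest in 77.3% and over 1.3 times in 7.00%, and the ratio was 1.42 for Acta2 and 1.45 for Myh11. How the authors set the lengths is not given in the sources used here. FPKM comparisons of Acta2 and Myh11 between libraries therefore differ from those of counts.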
